A study of Mus musculus with 19 samples.

Results

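Transcripts of 9 sarcomere scaffold genes were followed in mouse hearts after birth: Ttn (titin), Tcap (telethonin), Actn2 (sarcomeric alpha-actinin), Ldb3 (also called ZASP or Cypher), the myomesins Myom1, Myom2 and Myom3, Mybpc3 (cardiac myosin-binding protein C) and Cavin4 (a muscle caveola coat protein, also called MURC). The genes were taken by symbol from a table of 56066 genes. All 9 were among the 14812 genes that reached 1 TPM in at least 3 libraries and so entered the tests. TPM is a length-corrected measure of a transcript's share of all transcripts of a library, and on that basis levels are set side by side between genes. The authors' gene length was 107355 bases for Ttn and 948 for Tcap. Whether reads covered transcripts of such unlike length evenly was not tested, so levels and ratios between genes carry that limit. RNA came from hearts of wild-type (WT) mice at postnatal day 1 (P1, 3 libraries), P7 (5 libraries) and P21 (4 libraries), and from PDK1 conditional knockout (cKO) hearts at P7 (3 libraries) and P21 (3 libraries). The sample labels gave P1 where the series' design text has P0 for the youngest group, and P1 is used here. They had no field for strain, allele, sex or driver of recombination; the titles of WT P21 libraries 2 and 3 hold the tag B6, which they do not define and no other title holds. The labels also did not tell which libraries were separate animals, so p-values here measure the spread between libraries, which may be technical. Libraries are named by the number in their title. Numbers 1 to 3 stood in titles with a letter code (all P1 libraries, WT P7 libraries 1 and 3, WT P21 libraries 2 and 3), whereas the other WT titles and every cKO title were plain numbers. P21 library 63 carried the cKO genotype in its labels but a title of the WT form and was left out of the groups. In the authors' deposited table, the mean column named for P21 WT equalled the mean of libraries 57, 60 and 63 (within 0.001 TPM) for all 56066 genes; with library 63 placed as WT, no call of the 9 genes given below was lost.

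The sarcomere is the contractile unit of striated muscle, bounded by Z-discs and centred on the M-band. Titin molecules span each side from Z-disc to M-band; at the Z-disc, alpha-actinin crosslinks the actin filaments of neighbouring sarcomeres, telethonin caps the end of titin, and the Ldb3 protein binds alpha-actinin. At the M-band, myomesins tie neighbouring myosin filaments and titin together, cardiac myosin-binding protein C sits along the thick filament, and the Cavin4 protein, though part of the caveola coat at the plasma membrane, is also found near Z-discs. Mutations in several of these genes are known to cause inherited cardiomyopathy.

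Positions are those of the GENCODE annotation on the mouse build GRCm38, and each TPM value covers the whole gene, with no split by exon or isoform. Ttn lay at chr2:76703980-76982547 on the minus strand, with up to 347 exons in 1 transcript, and Mybpc3 at chr2:91118144-91136516 on the plus strand of the same chromosome, with up to 35. Tcap, at chr11:98383811-98384953 (plus strand), had 2 exons. The Z-disc genes Actn2 and Ldb3 lay at chr13:12269426-12340760 and chr14:34526603-34588682, both on the minus strand. On the plus strand were Myom1 (chr17:71002633-71126856), Myom2 (chr8:15057653-15133541), Myom3 (chr4:135759715-135815564) and Cavin4 (chr4:48663514-48673502). The annotated start of Myom1 overlapped Myl12a on the opposite strand, whose level was 407 to 863 TPM, and the sources did not say whether the counting used strand. An antisense gene within Ttn, Gm13938, was listed at 0 in every library.

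Promoter sequences are shown to set side by side members that were higher in P21 cKO than in P21 WT (Mybpc3, Cavin4 and Actn2) and one that did not pass that test (Ttn); how far those calls depend on scaling is given with each gene. The stretches come from RefSeq (GRCm38.p6), which had an entry for 7 of the 9 genes, and each is the 250 bases before the gene start, 5′ to 3′ on the gene's strand. Capitals mark a MEF2 site (CTA, 4 bases of A or T, TAG) in Ttn (chr2:76982548-76982797) and in Mybpc3 (chr2:91117894-91118143), TATAAA in Cavin4 (chr4:48663264-48663513) and AGGTCA, a motif bound by nuclear receptors, in Actn2 (chr13:12340733-12340982).
Ttn: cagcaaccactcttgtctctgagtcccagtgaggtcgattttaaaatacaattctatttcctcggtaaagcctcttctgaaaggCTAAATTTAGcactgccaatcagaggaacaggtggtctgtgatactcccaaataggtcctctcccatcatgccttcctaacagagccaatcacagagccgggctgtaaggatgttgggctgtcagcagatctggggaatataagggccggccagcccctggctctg
Mybpc3: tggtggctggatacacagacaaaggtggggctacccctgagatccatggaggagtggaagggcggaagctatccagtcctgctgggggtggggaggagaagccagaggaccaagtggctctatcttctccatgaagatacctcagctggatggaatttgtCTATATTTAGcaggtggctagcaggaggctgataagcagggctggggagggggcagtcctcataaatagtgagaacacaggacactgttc
Cavin4: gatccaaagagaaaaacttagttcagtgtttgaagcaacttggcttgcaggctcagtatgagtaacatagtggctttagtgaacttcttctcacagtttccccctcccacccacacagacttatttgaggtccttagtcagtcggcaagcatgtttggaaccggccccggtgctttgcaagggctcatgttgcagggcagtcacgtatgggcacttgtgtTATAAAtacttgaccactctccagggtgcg
Actn2: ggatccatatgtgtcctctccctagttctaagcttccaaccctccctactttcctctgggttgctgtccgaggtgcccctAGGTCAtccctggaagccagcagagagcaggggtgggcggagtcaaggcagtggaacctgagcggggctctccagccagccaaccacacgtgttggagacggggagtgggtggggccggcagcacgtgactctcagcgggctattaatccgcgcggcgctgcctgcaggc

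Myom1 and Ldb3 are shown for a shorter stretch around a CArG box (CC, 6 bases of A or T, GG), the sequence bound by serum response factor. The stretch lay at chr17:71019438-71019487 (plus strand) for Myom1 and at chr14:34588687-34588736 (minus strand) for Ldb3, and the box is in capitals. The RefSeq start of Myom1 is a later one than the GENCODE start, so its stretch lies inside the gene as positioned above.
Myom1: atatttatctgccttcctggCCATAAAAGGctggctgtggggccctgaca
Ldb3: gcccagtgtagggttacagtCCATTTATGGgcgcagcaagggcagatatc
Each motif was searched on both strands from 250 bases before to 50 after the start, and the share of all 32851 promoters in the table that held it is given as background. A MEF2 site was in 0.557% of promoters, a CArG box in 1.63%, TATAAA in 13.6% and AGGTCA in 16.3%. The MEF2 site began 166 bases before the start of Ttn and 90 bases before that of Mybpc3. CATTCC was found in Ttn alone among the 7 genes, after the start (14.7% of promoters), the forkhead core GTAAACA in none of them (3.65%), and the E-box CANNTG, which 72.3% of promoters held and which is not capitalised, in all but Ldb3. A match is a run of letters, not a measured binding site.

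TPM values keep no read depth, so read depth is not known for any value. The number of genes at or above 1 TPM ran from 12422 to 13797 over the libraries. PDK1 can mean the product of Pdpk1 or of Pdk1, and which of them was deleted is not in the labels. Pdpk1 stood at 4.95 to 5.55 TPM in the P21 cKO libraries and 6.17 to 7.65 TPM in P21 WT. At P7 its range was 7.95 to 8.09 TPM in cKO and 7.96 to 11.9 TPM in WT, so the libraries of the genotypes overlapped. Pdk1 stood at 31.6 to 37.7 TPM in P21 cKO and 24.3 to 29.4 TPM in P21 WT. The 9 genes together took 0.368% to 0.410% of all TPM in P21 WT and 0.427% to 0.493% in P21 cKO.

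The knockout libraries differed from WT in these genes at P21. Of the 9 genes, Myom2, Cavin4, Mybpc3 and Actn2 were higher in P21 cKO and Tcap was lower; Ttn, Ldb3, Myom1 and Myom3 did not pass the test (limma on log2(TPM + 1), adjusted p under 0.05). The same test called 19.5% of all genes higher and 1.77% lower at P21, and the median gene had a log2 change of 0.22. In cKO against WT at P7 none of the 9 passed, beside 0.0203% of all genes called higher and 0% lower. At P7, 494 genes had an unadjusted p under 0.05, and none of the 9 was among them. In bulk tissue, fewer cells of a type and less RNA per cell cannot be told apart.

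In WT hearts, Tcap and Cavin4 rose from P1 to P7 and Actn2 fell, beside 13.8% of all genes called higher and 14.7% called lower. From P7 to P21 in WT, Ttn and Tcap rose and Actn2, Mybpc3 and Cavin4 fell, beside 8.1% of genes called higher and 64.4% lower. The 3 falls are in a comparison whose median gene had a log2 change of -0.47, and none of the 3 passed under median-ratio scaling, which sets the typical gene of each library level. From P7 to P21 in cKO, Ttn, Tcap and Myom2 rose, while Actn2 fell and Mybpc3 passed as lower but had the opposite sign under median-ratio scaling (0.12); 9.36% of all genes were called higher and 39% lower, with a median gene at -0.24. The test of whether the knockout effect differed between P21 and P7 passed as higher for Myom2, Mybpc3 and Cavin4 and as lower for Tcap. It called 7.04% of all genes higher and 0.52% lower, and its median gene stood at 0.24. These comparisons share libraries, so their calls are not independent of each other.

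**Figure D1:**
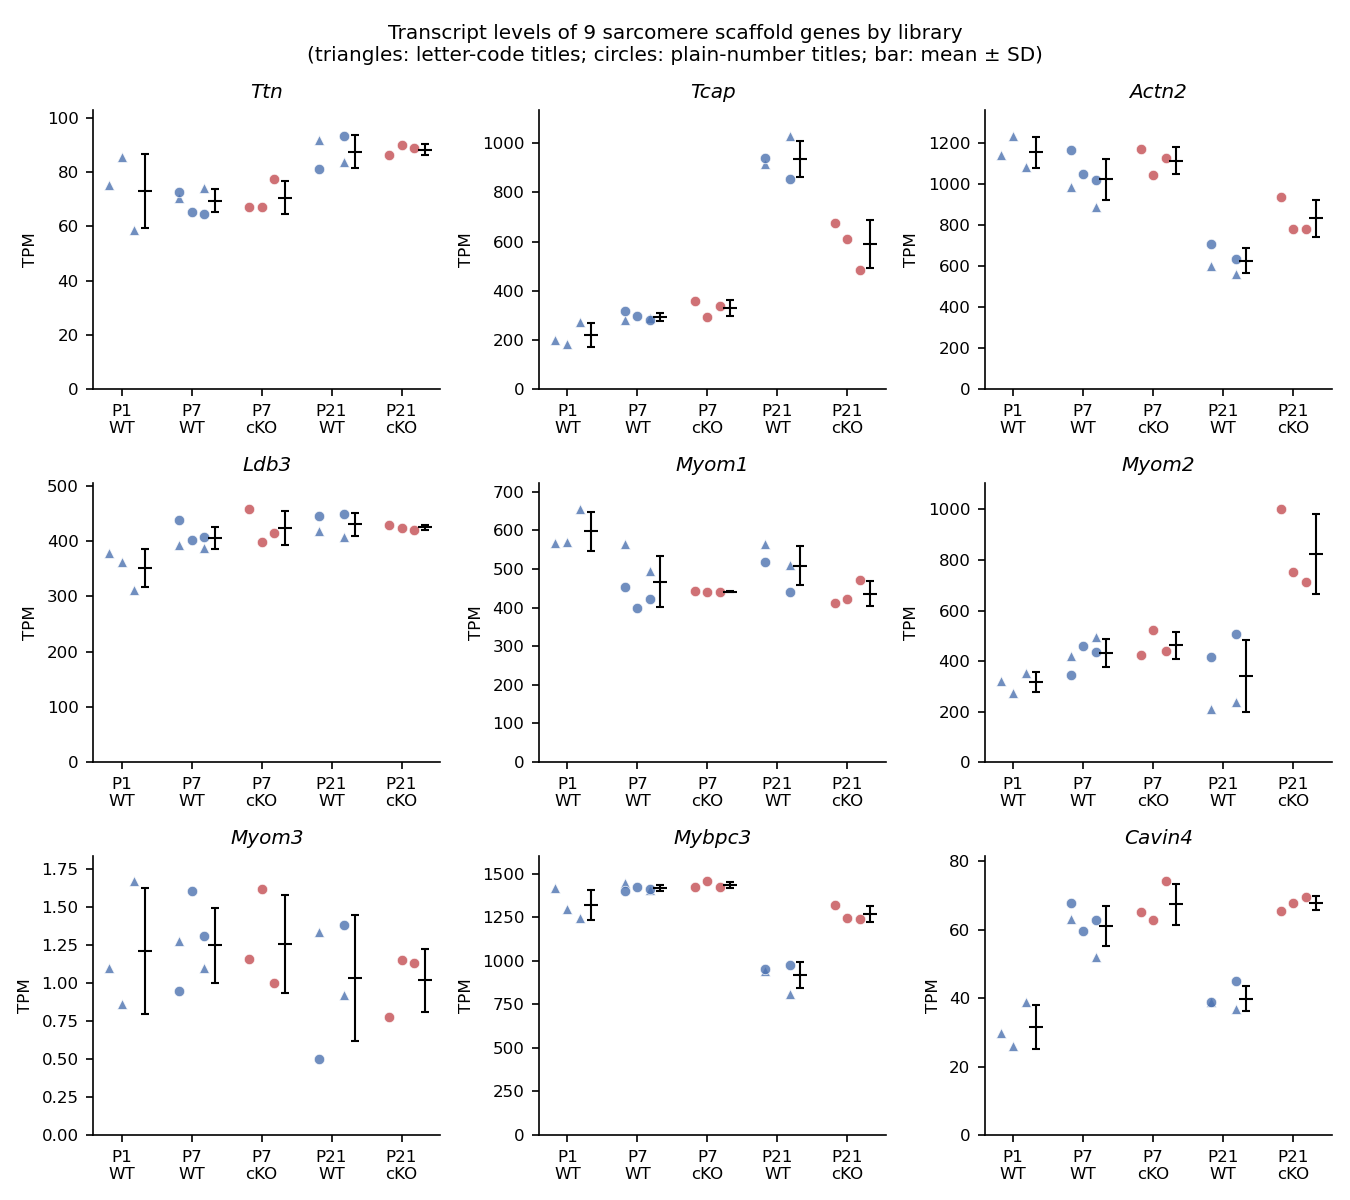
TPM (linear axes from 0) of each of the 9 genes in every library, by group; triangles are libraries with letter-coded titles, circles those with plain-number titles, blue is WT and red is cKO, and bars are the mean ± SD over libraries. Tcap climbed to 854 to 1031 TPM in P21 WT and 484 to 674 TPM in P21 cKO, and Myom2 in P21 WT split by title style.

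Titin transcripts rose from P7 to P21 and passed no test between the genotypes. Ttn stood at 75.4, 85.5 and 58.5 TPM in P1 libraries 1, 2 and 3. At P7 it was at 70.5, 74.0, 72.6, 65.3 and 64.7 TPM in WT libraries 1, 3, 72, 76 and 77, and at 67.1, 67.2 and 77.6 TPM in cKO libraries 69, 75 and 82. At P21 it was at 91.9, 83.6, 81.1 and 93.4 TPM in WT libraries 2, 3, 57 and 60, and at 86.1, 89.8 and 88.8 TPM in cKO libraries 55, 59 and 64. All 7 P21 libraries lay above all 8 P7 libraries, and the genotypes overlapped at both ages. The rise from P7 to P21 was 0.32 ± 0.090 (log2, SE; adjusted p = 0.00442) in WT and 0.32 ± 0.11 (adjusted p = 0.0235) in cKO. The WT rise passed in all 30 alternative settings, and its value relative to the median gene was 0.79. In cKO, leaving out library 69 or 75 at P7, or 59 or 64 at P21, put the adjusted p between 0.0554 and 0.0795. For cKO against WT the log2 difference was 0.05 at P7 (95% interval -0.17 to 0.27) and 0.04 at P21 (-0.19 to 0.28). From P1 to P7 it was -0.02 ± 0.11 (adjusted p = 0.896). Because titin transcripts are so long, Ttn took 0.632% ± 0.0315 (SD, n = 4) of P21 WT transcript mass when each gene's TPM was weighted by the authors' length column, and 0.602% ± 0.0106 (n = 3) in P21 cKO.

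Telethonin transcripts had the largest rise of the 9 genes from P7 to P21 and were lower in P21 cKO than in P21 WT. Tcap stood at 201, 185 and 274 TPM in P1 libraries 1, 2 and 3. At P7 the WT libraries (1, 3, 72, 76, 77) had 282, 289, 319, 298 and 282 TPM, and the cKO libraries (69, 75, 82) had 357, 292 and 339 TPM. At P21 WT libraries 2, 3, 57 and 60 reached 916, 1031, 939 and 854 TPM, against 674, 611 and 484 TPM in cKO libraries 55, 59 and 64. Each P21 cKO library was below each P21 WT library and above each P7 library of either genotype. The log2 difference of cKO from WT at P21 was -0.67 ± 0.14 (SE; adjusted p = 0.00526), or -0.88 relative to the median gene. It passed in all 30 alternative settings, with values from -0.53 to -0.77 when 1 library was left out. At P7 the difference was 0.17 (95% interval -0.11 to 0.44; adjusted p = 1), and the P21 difference minus the P7 difference was -0.83 ± 0.18 (adjusted p = 0.0145). Within plain-number titles that last value was -0.75 and did not pass (adjusted p = 0.0878), nor did it with library 63 placed as cKO (-0.72, adjusted p = 0.132). The WT rise from P7 to P21 was 1.66 ± 0.11 (adjusted p = 4.7e-09) and the cKO rise 0.83 ± 0.14 (adjusted p = 1.49e-04). From P1 to P7, WT rose by 0.44 ± 0.14 (adjusted p = 0.0273), a call lost when P1 library 1 or 2 or WT P7 library 3 was left out (adjusted p 0.0851, 0.124 and 0.0604), under median-ratio scaling (adjusted p = 0.0828) and with no filter (adjusted p = 0.0613).

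Tcap is also abundant in skeletal muscle, and skeletal muscle markers were low. Of 14 such markers, 10 stayed under 1 TPM in all 18 libraries, among them the adult and embryonic myosins Myh1, Myh2, Myh4 and Myh3. Of the 4 that could be tested, 2 were lower in P21 cKO and none higher, beside 1.77% and 19.5% of all genes. The summed level of the 14 was 50.2 to 56.3 TPM in P21 WT and 13.9 to 23.0 TPM in P21 cKO. Most of that sum was Myl1, a myosin light chain, at 40.4 to 44.7 TPM in P21 WT and 9.46 to 17.5 TPM in P21 cKO. The same 14 summed to 45.6 to 70.9 TPM at P1, where Tcap was at its lowest. Their part in the Tcap result was not tested.

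The gene of sarcomeric alpha-actinin lost level with age in WT and was higher in P21 cKO. Actn2 stood at 1146, 1238 and 1087 TPM in P1 libraries 1, 2 and 3. The P7 values were 989, 892, 1167, 1050.3 and 1021 TPM in WT libraries 1, 3, 72, 76 and 77 and 1175, 1047 and 1128 TPM in cKO libraries 69, 75 and 82. At P21 they were 604, 562, 709 and 634 TPM in WT libraries 2, 3, 57 and 60 and 940.1, 785 and 781 TPM in cKO libraries 55, 59 and 64. Each P21 cKO library lay above each P21 WT library, and library 55 was the highest of its group. The difference at P21 was 0.31 ± 0.085 (log2, SE; adjusted p = 0.0194). Relative to the median gene it was 0.09, and under median-ratio scaling it was 0.05 and did not pass (adjusted p = 0.816). It also failed to pass without cKO library 55 (0.22, adjusted p = 0.0685) and within plain-number titles (0.31, adjusted p = 0.0622), under quantile normalization (0.18, adjusted p = 0.212), without mitochondrial and haemoglobin genes (0.26, adjusted p = 0.0597) and with library 63 placed as cKO (0.21, adjusted p = 0.183). The WT fall from P7 to P21 was -0.69 ± 0.069 (adjusted p = 3.25e-07), or -0.21 relative to the median gene, and -0.10 (adjusted p = 0.368) under median-ratio scaling. In cKO the fall was -0.42 ± 0.083 (adjusted p = 6.64e-04), and -0.13 (adjusted p = 0.41) under median-ratio scaling. From P1 to P7, WT fell by 0.30 ± 0.085 (adjusted p = 0.0162), a call lost without P1 library 2 (adjusted p = 0.0706) or WT P7 library 3 (adjusted p = 0.0765). It was also lost under median-ratio scaling (adjusted p = 0.0683), under quantile normalization (-0.05, adjusted p = 0.664), with no title style in the model (-0.18, adjusted p = 0.141) and with library 63 placed as cKO (adjusted p = 0.057).

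Ldb3, whose PDZ and LIM domain protein binds alpha-actinin, had the smallest spread of the 9 genes relative to its level, between 312 and 459 TPM in the 18 libraries. It stood at 379, 363 and 312 TPM in P1 libraries 1, 2 and 3. The P7 levels were 394, 388, 438, 403 and 408 TPM in WT libraries 1, 3, 72, 76 and 77 and 459, 399 and 414 TPM in cKO libraries 69, 75 and 82. The P21 levels were 419, 408, 447 and 449 TPM in WT libraries 2, 3, 57 and 60 and 430.0, 424 and 421 TPM in cKO libraries 55, 59 and 64. WT and cKO libraries overlapped at both ages. The log2 difference of cKO from WT was 0.02 at P7 (95% interval -0.12 to 0.16) and -0.07 at P21 (-0.22 to 0.08; adjusted p = 0.487). Since the median gene was higher in P21 cKO, the P21 value was -0.29 relative to it, and median-ratio scaling called Ldb3 lower (-0.33, adjusted p = 0.0205). From P1 to P7 in WT the change was 0.15 ± 0.070 (adjusted p = 0.119), with each P7 library above each P1 library. It passed as higher with no title style in the model (0.21, adjusted p = 0.0203), under quantile normalization (0.31, adjusted p = 0.0059) and without P1 library 1 (0.21, adjusted p = 0.0473). From P7 to P21 in WT the change was 0.09 ± 0.056 (adjusted p = 0.143), or 0.57 relative to the median gene, and it passed as higher under median-ratio scaling (0.68, adjusted p = 5.05e-07).

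Of the myomesins, Myom2 was higher in P21 cKO, and Myom1 did not pass that test. Myom2 stood at 321, 274 and 353 TPM in P1 libraries 1, 2 and 3. At P7 it stood at 418, 497, 345, 459 and 437 TPM in WT libraries 1, 3, 72, 76 and 77 and at 424, 524 and 438 TPM in cKO libraries 69, 75 and 82. At P21 it stood at 210, 238, 415 and 507 TPM in WT libraries 2, 3, 57 and 60 and at 1004, 751 and 714 TPM in cKO libraries 55, 59 and 64. Each P21 cKO library was above every other library in the series, while P21 WT split into a low letter-coded pair and a higher plain-number pair. The P21 difference was 1.15 ± 0.24 (log2, SE; adjusted p = 0.00492), or 0.93 relative to the median gene. Within plain-number titles it was 0.83 (adjusted p = 0.0177), and without each library in turn it was 1.0 to 1.42. It passed in all 30 alternative settings but the one that placed library 63 as cKO (0.76, adjusted p = 0.145). At P7 the difference was -0.05 (95% interval -0.52 to 0.42), and the P21 difference exceeded it by 1.20 ± 0.30 (adjusted p = 0.0288). The call of that excess was lost in 12 of 30 settings, 7 of them with 1 library left out, and within plain-number titles the value was 0.66 (adjusted p = 0.185). The libraries whose omission ended it were 1 of WT P7, 2 and 3 of WT P21, 69 and 82 of cKO P7 and 55 and 59 of cKO P21, with adjusted p between 0.0522 and 0.0747.

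Across ages, Myom2 rose from P7 to P21 in cKO by 0.82 ± 0.23 (log2, SE; adjusted p = 0.00859), a call lost with library 63 placed as cKO (0.44, adjusted p = 0.28). In WT the change was -0.38 ± 0.19 (adjusted p = 0.088). Without WT P7 library 72 the WT value was -0.49 and without WT P21 library 60 it was -0.58, and both then passed as lower (adjusted p = 0.0241 and 0.0133), as did the value with library 63 placed as WT (-0.46, adjusted p = 0.0329) and with array quality weights (-0.65, adjusted p = 0.00346). Within plain-number titles it had the opposite sign (0.16, adjusted p = 0.434). The WT course of Myom2 thus depended on which P7 and P21 libraries were used and on how they were weighted.

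Myom1, the myomesin most abundant at P1, stood at 567, 571 and 656 TPM in P1 libraries 1, 2 and 3. Its P7 levels were 565, 495, 452, 398 and 422 TPM in WT libraries 1, 3, 72, 76 and 77 and 442, 440.1 and 440.3 TPM in cKO libraries 69, 75 and 82. Its P21 levels were 564, 510.0, 519 and 441 TPM in WT libraries 2, 3, 57 and 60 and 412, 422 and 472 TPM in cKO libraries 55, 59 and 64. The genotypes overlapped at both ages, and the letter-coded libraries were the highest of P7 WT. The difference of cKO from WT was 0.03 at P7 (log2; 95% interval -0.14 to 0.20) and -0.10 at P21 (-0.28 to 0.09; adjusted p = 0.435). From P1 to P7 it was -0.22 ± 0.087 (SE; adjusted p = 0.0777), and without WT P7 library 1 it passed as lower (-0.29, adjusted p = 0.0348), as it did with no title style in the model (-0.37, adjusted p = 0.0103). From P7 to P21 in WT it was 0.10 ± 0.071 (adjusted p = 0.193), or 0.58 relative to the median gene, and it passed as higher under median-ratio scaling (0.69, adjusted p = 2.45e-05).

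Myom3, known mainly from skeletal muscle, was close to the detection filter throughout. Its lowest and highest levels in the 18 libraries were 0.5 TPM (WT P21 library 57) and 1.67 TPM (P1 library 3). Group means ran from 1.02 ± 0.208 TPM (SD, n = 3) in P21 cKO to 1.26 ± 0.322 TPM (n = 3) in P7 cKO, and every pair of groups overlapped. None of its 6 comparisons passed, with adjusted p from 0.355 to 1. At this level the log2(TPM + 1) scale understates change, and the P21 difference had a 95% interval of -0.39 to 0.45.

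Cardiac myosin-binding protein C, which tunes the cycling of myosin heads, fell from P7 to P21 in WT and was higher in P21 cKO than in P21 WT. Mybpc3 stood at 1417, 1299 and 1248 TPM in P1 libraries 1, 2 and 3. At P7 it stood at 1450.2, 1410.3, 1401, 1422 and 1410.45 TPM in WT libraries 1, 3, 72, 76 and 77 and at 1426, 1457 and 1423 TPM in cKO libraries 69, 75 and 82. At P21 it stood at 941, 809, 952 and 975 TPM in WT libraries 2, 3, 57 and 60 and at 1320.2, 1245 and 1239 TPM in cKO libraries 55, 59 and 64. The P7 libraries of the genotypes overlapped, and at P21 each cKO library exceeded each WT library by more than the spread within either group. The P21 difference was 0.44 ± 0.065 (log2, SE; adjusted p = 6.14e-04), or 0.22 relative to the median gene. It ranged from 0.41 to 0.47 with 1 library left out, and under median-ratio scaling it was 0.18 and did not pass (adjusted p = 0.131). At P7 it was -0.01 (95% interval -0.13 to 0.12), and the P21 difference exceeded it by 0.44 ± 0.083 (adjusted p = 0.00824). That excess did not pass under median-ratio scaling (0.16, adjusted p = 0.409), under quantile normalization (0.35, adjusted p = 0.0981) or with library 63 placed as cKO (0.35, adjusted p = 0.164). The WT fall from P7 to P21 was -0.62 ± 0.053 (adjusted p = 5.12e-08), or -0.15 relative to the median gene, and -0.04 (adjusted p = 0.559) under median-ratio scaling. In cKO the change was -0.18 ± 0.064 (adjusted p = 0.03). That call was lost without any one of cKO libraries 69, 75, 82, 59 and 64 (adjusted p 0.0563 to 0.0893), without mitochondrial and haemoglobin genes (adjusted p = 0.114) and with no filter (adjusted p = 0.066).

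The muscle caveola gene Cavin4 rose from P1 to P7, was lower again in P21 WT, and was higher in P21 cKO than in P21 WT. It stood at 30.0, 26.1 and 38.8 TPM in P1 libraries 1, 2 and 3. At P7 it was at 63.2, 52.1, 67.9, 59.8 and 62.9 TPM in WT libraries 1, 3, 72, 76 and 77 and at 65.3, 62.8 and 74.1 TPM in cKO libraries 69, 75 and 82. At P21 it was at 38.8, 36.8, 38.9 and 45.0 TPM in WT libraries 2, 3, 57 and 60 and at 65.5, 68.0 and 69.6 TPM in cKO libraries 55, 59 and 64. The P21 cKO libraries lay within the range of the P7 cKO libraries, and all 3 were above each P21 WT library. The P21 difference was 0.68 ± 0.12 (log2, SE; adjusted p = 0.00184), or 0.46 relative to the median gene. Under median-ratio scaling it was 0.43 and did not pass (adjusted p = 0.0738), and within plain-number titles it was 0.68 (adjusted p = 0.0032). At P7 it was 0.08 (95% interval -0.15 to 0.32), and the P21 difference exceeded it by 0.60 ± 0.15 (adjusted p = 0.0298). That excess did not pass in 13 of 30 settings, 7 of them with 1 library left out (adjusted p 0.0589 to 0.0747): WT P7 library 1, WT P21 libraries 3 and 57, cKO P7 libraries 69 and 75, and cKO P21 libraries 59 and 64. The WT rise from P1 to P7 was 0.86 ± 0.12 (adjusted p = 1.23e-04) and passed in all 29 settings that could be fitted. The WT fall from P7 to P21 was -0.59 ± 0.097 (adjusted p = 5.32e-05), or -0.12 relative to the median gene, and -0.02 (adjusted p = 0.901) under median-ratio scaling and -0.16 (adjusted p = 0.229) under quantile normalization. In cKO the change over the same days was 0.01 (95% interval -0.24 to 0.26).

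**Figure D2:**
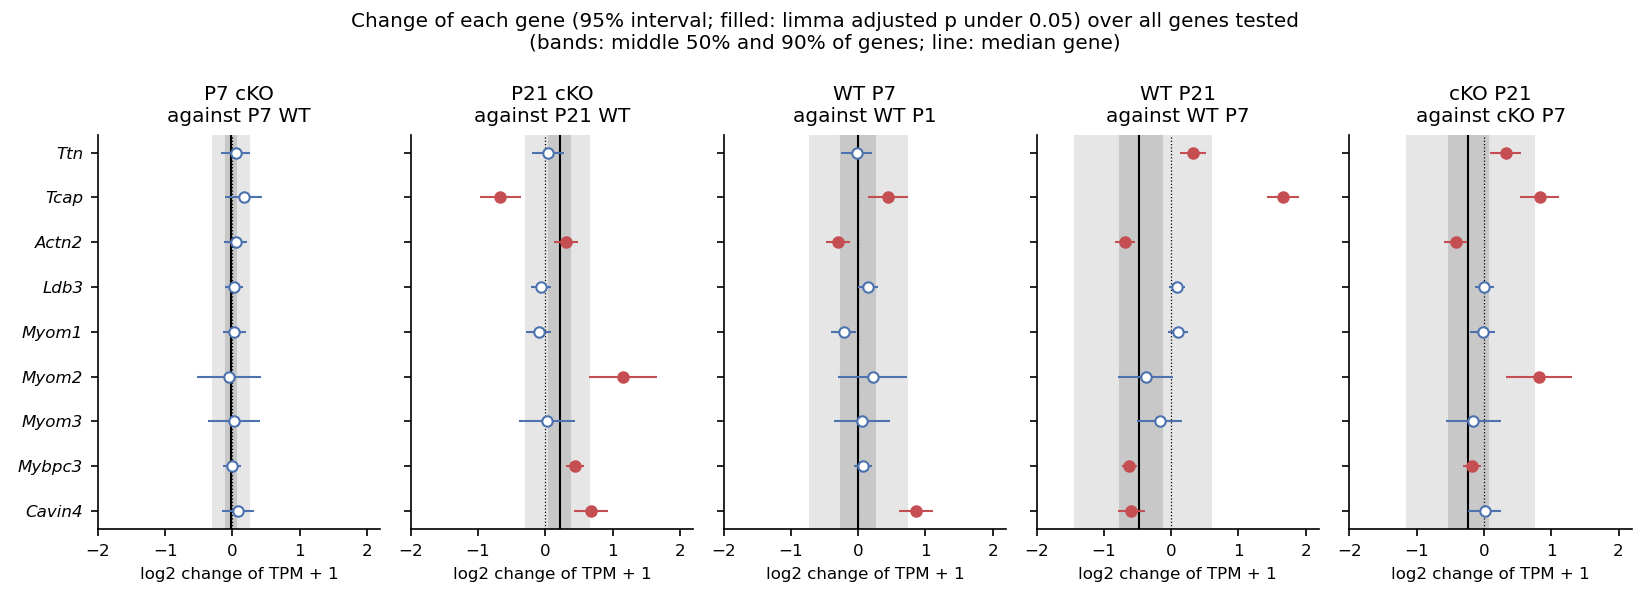
Log2 change of TPM + 1 for each of the 9 genes in 5 comparisons, with 95% intervals; filled red points passed limma's test at adjusted p under 0.05, grey bands hold the middle 50% and 90% of the 14812 genes tested, the solid line is the median gene and the dotted line 0. At P21, Myom2 (1.15) and Cavin4 (0.68) lay above the 90% band and Tcap (-0.67) below it, while Actn2 (0.31) lay inside the middle 50%.

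The place of each gene among all genes tested was as follows at P21. The Myom2 difference was higher than that of 99.2% of genes, Cavin4 than 95.6% and Mybpc3 than 83.3%. Actn2 was higher than 66.7% of genes, and Tcap higher than 1.5%. The groups of libraries did not overlap for 5 of the 9 genes at P21, with cKO above WT in 4 and below in 1. Over all genes, cKO libraries lay wholly above WT in 28.5% and wholly below in 3.07%. At P7 the genotypes overlapped for all 9 genes, and 1.26% of all genes lay wholly above and 2.73% wholly below.

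The order of the levels also differed between groups. At P1 the order from the top was Mybpc3 (1321 ± 86.5 TPM, SD, n = 3), Actn2 (1157 ± 76.1), Myom1 (598 ± 50.5), Ldb3 (352 ± 34.9), Myom2 (316 ± 39.6), Tcap (220.2 ± 47.2), Ttn (73.1 ± 13.6), Cavin4 (31.6 ± 6.50) and Myom3 (1.21 ± 0.416). The ranges of Ldb3 and Myom2 overlapped there, and no other neighbours did. At P21 in WT, Tcap (935 ± 73.2 TPM, n = 4) and Mybpc3 (919 ± 74.8) stood at the top with overlapping ranges. Next came Actn2 (627 ± 61.7) and Myom1 (509 ± 50.7), whose ranges met, and the ranges of Myom1, Ldb3 (431 ± 20.3) and Myom2 (343 ± 142) overlapped. In P21 cKO the top was Mybpc3 (1268 ± 45.4 TPM, n = 3), then Actn2 (835 ± 91.0) and Myom2 (823 ± 158) with overlapping ranges, then Tcap (590 ± 97.0). Tcap was thus 1st in P21 WT and 4th in P21 cKO by mean level, and 6th in the 3 younger groups. These levels are descriptions, with no test between genes.

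Ratios of TPM between genes of the same library do not depend on how libraries are scaled to each other. The Tcap to Ttn ratio was 3.17 ± 1.33 (SD, n = 3) at P1, 4.24 ± 0.279 (n = 5) in WT at P7 and 4.68 ± 0.558 (n = 3) in cKO at P7. At P21 it was 9.97, 12.3, 11.6 and 9.15 in WT libraries 2, 3, 57 and 60 and 7.83, 6.80 and 5.45 in cKO libraries 55, 59 and 64. The genotypes did not overlap in this ratio at P21. The Mybpc3 to Ttn ratio was 20.5 ± 1.31 (n = 5) in WT at P7 and 20.4 ± 1.82 (n = 3) in cKO at P7, and at P21 it was 9.68 to 11.7 in WT and 13.9 to 15.3 in cKO. The Cavin4 to Ttn ratio was 0.885 ± 0.105 in P7 WT and 0.955 ± 0.0199 in P7 cKO, and at P21 0.423 to 0.482 in WT and 0.757 to 0.784 in cKO. In these 3 ratios the P21 libraries of the genotypes were apart whatever the scaling. The Actn2 to Ttn ratio met at P21, at 6.57 to 8.735 in WT and 8.735 to 10.9 in cKO. The Myom1 to Ttn ratio overlapped there, at 4.72 to 6.40 in WT and 4.70 to 5.32 in cKO. Ttn itself was at -0.17 relative to the median gene at P21, so a gene that changes like the median has a higher ratio to Ttn in cKO. The share of all genes whose ratio to Ttn was apart was not computed.

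Among Z-disc partners, the Tcap to Actn2 ratio went from 0.288 ± 0.0207 (SD, n = 5) in P7 WT to 1.51 ± 0.235 (n = 4) in P21 WT, and from 0.295 ± 0.0137 to 0.705 ± 0.0802 (n = 3 each) in cKO. For the myomesins, the Myom2 to Myom1 ratio was 0.528 ± 0.0441 at P1 (n = 3), 0.939 ± 0.18 in P7 WT and 1.05 ± 0.125 in P7 cKO. At P21 it was 0.373, 0.467, 0.799 and 1.15 in WT libraries 2, 3, 57 and 60 and 2.44, 1.78 and 1.51 in cKO libraries 55, 59 and 64. Every P21 cKO library thus held more Myom2 than Myom1 transcript. So did WT P21 library 60, WT P7 libraries 3, 76 and 77 (1.003, 1.152 and 1.035) and cKO P7 library 75 (1.192). Against these, the Ldb3 to Ttn ratio overlapped between the genotypes at P21, at 4.56 to 5.51 in WT and 4.72 to 4.99 in cKO.

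**Figure D3:**
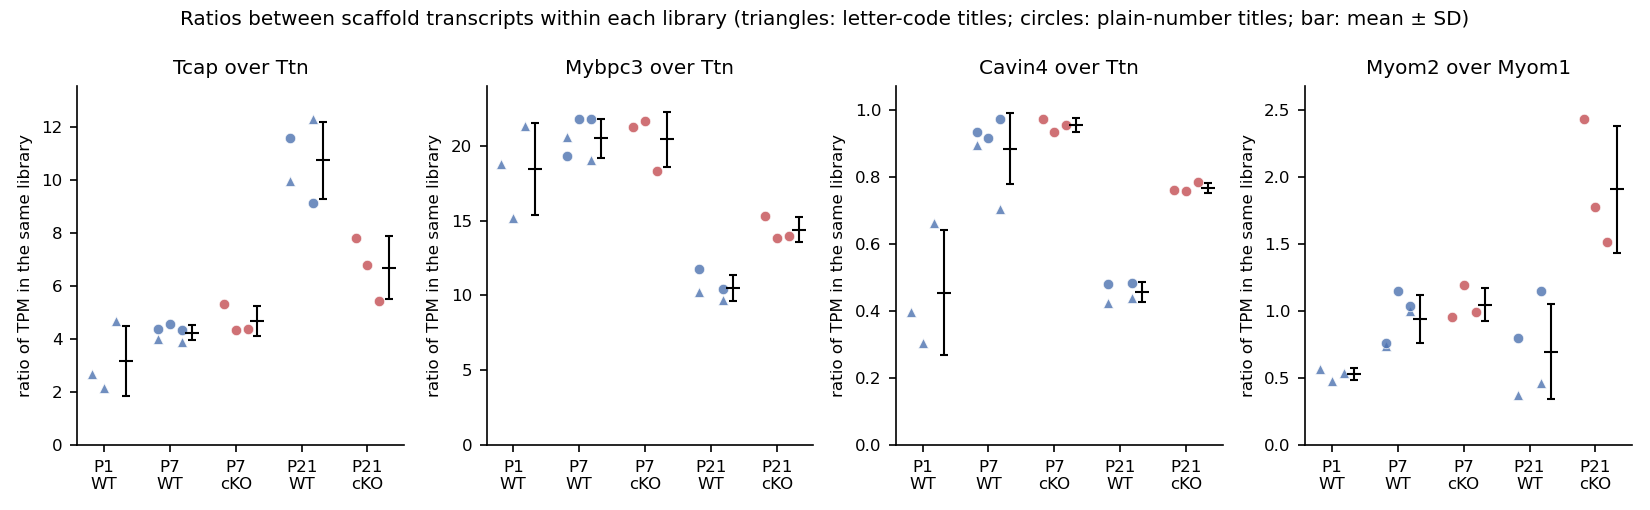
Ratio of TPM between pairs of scaffold genes in each library, by group (linear axes from 0; triangles are letter-coded titles, circles plain-number titles, blue WT, red cKO, bars mean ± SD). At P21 the cKO libraries were below WT for Tcap over Ttn (5.45 to 7.83 against 9.15 to 12.3) and above WT for the other 3 ratios.

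Title style went with some of these genes and is a term of the model. The fitted difference of plain-number from letter-coded titles was 0.39 (log2) for Myom2, -0.25 for Myom1 and 0.20 for Actn2, and between -0.06 and 0.14 for the other 6 genes. In P21 WT, Myom2 was at 210 and 238 TPM in the letter-coded libraries and at 415 and 507 TPM in the plain-number ones. Those letter-coded P21 titles are the ones with the tag B6. Since every cKO title was a plain number and every P1 title had a letter code, what the styles stand for cannot be told apart from other differences between those sets.

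**Figure D4:**
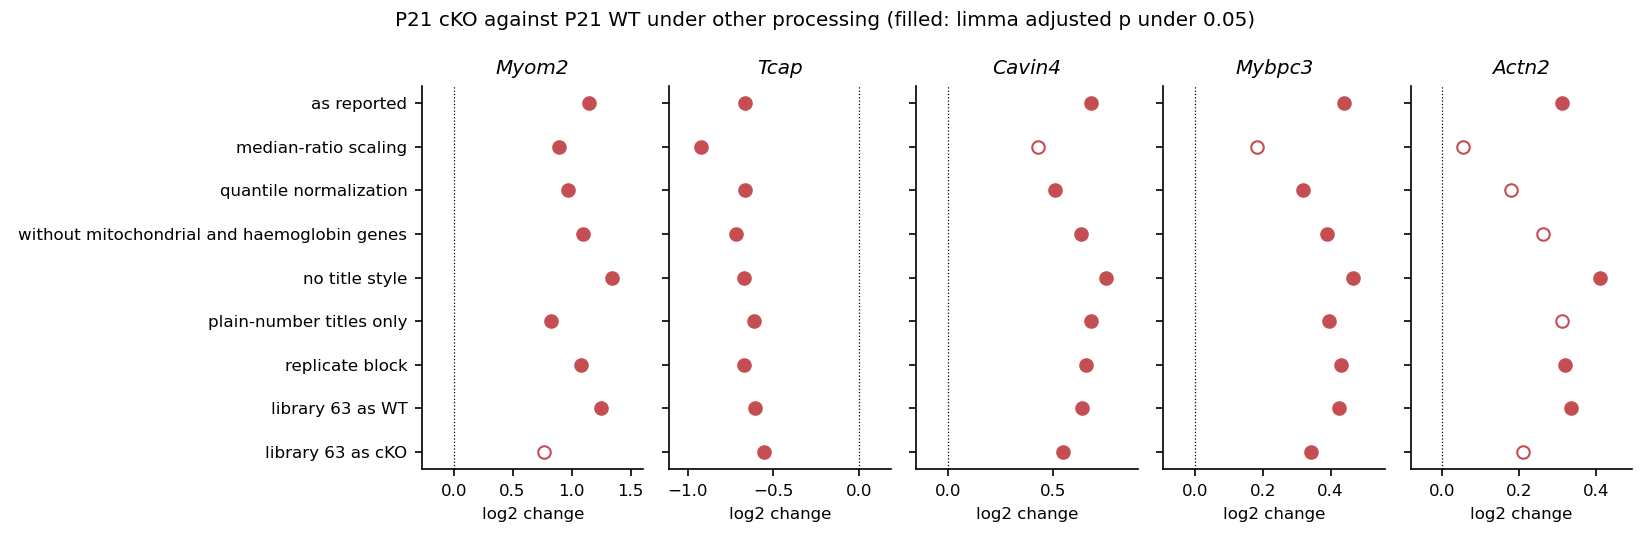
Log2 difference of P21 cKO from P21 WT for the 5 genes that passed, as reported and under 8 other settings (each panel has its own axis; filled points passed limma's test at adjusted p under 0.05). Tcap passed in every setting plotted (-0.67 as reported), and Actn2 (0.31 as reported) was filled in the fewest.

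Markers of other cell types differed between the P21 groups as well. The counts below stand beside 19.5% of all genes called higher in P21 cKO and 1.77% called lower. The fibroblast markers (9 of 9 called higher) summed to 1574 to 1879 TPM in P21 cKO and 970 to 1289 TPM in P21 WT. The endothelial markers (5 of 7 higher) summed to 1086 to 1147 TPM and 841 to 955 TPM, and the mural markers (5 of 8 higher) to 818 to 1102 TPM and 511 to 753 TPM. Of the atrial list 3 of 8 were higher, and its sum of 8364 to 15290 TPM in cKO against 294 to 502 TPM in WT was nearly all Nppa, which encodes atrial natriuretic peptide (8176 to 15240 TPM and 169.9 to 384 TPM); Myl7, an atrial light chain, overlapped at 17.7 to 135 TPM and 51.7 to 75.5 TPM. The cardiomyocyte markers (1 of 10 higher) summed to 65600 to 69580 TPM in cKO and 60520 to 66240 TPM in WT, so markers of the labelled tissue were abundant in every library. None of 8 macrophage or 5 red cell markers passed. At P7 no gene of any of these lists passed. Under median-ratio scaling the P21 counts were 5 of 9, 1 of 7, 2 of 8 and 2 of 8 for the fibroblast, endothelial, mural and atrial lists. In the same setting 1 cardiomyocyte marker and 1 macrophage marker were lower. The part of other cell types in the results on the 9 genes was not tested.

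Other genes of the same structures were read from lists chosen for their biology. At P7 no gene of the 6 lists passed between the genotypes. Of 15 tested M-band and titin-binding genes, 5 were higher and 1 was lower in P21 cKO, beside 19.5% and 1.77% of all genes. Their median log2 change was 0.25, beside 0.22 for all genes. The lower gene was Fhl2, a LIM protein that binds titin, with 909 ± 13.2 TPM (SD, n = 3) in the knockout against 1492 ± 23.6 TPM (n = 4), a log2 difference of -0.71 ± 0.063 (SE; adjusted p = 1.7e-05). Ankrd1, a stress-responsive ankyrin repeat protein of the titin spring region, was at 1048 ± 241 TPM against 237 ± 96.9 TPM (2.12 ± 0.34; adjusted p = 9.96e-04). Fhl1 and Trim63, the latter an M-band ubiquitin ligase, were higher by 0.71 (adjusted p = 0.00415) and 0.44 (adjusted p = 0.00688). The other higher genes were Ankrd23 and Sqstm1. Under median-ratio scaling Ankrd1 alone was called higher, and Fhl2 and Smpx lower.

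Of 28 other Z-disc genes, 9 were higher and none lower in P21 cKO, beside 19.5% and 1.77% of all genes. Their median was 0.19 beside 0.22 for all genes. Under median-ratio scaling 3 were higher (Pdlim1, Actn4 and Synpo2l) and 3 lower (Tmod1, Synpo2 and Palld). Pdlim1, a PDZ and LIM relative of Ldb3, was at 97.8 ± 3.75 TPM against 54.3 ± 9.95 TPM in WT (0.71 ± 0.096; adjusted p = 3.27e-04). Actn4, a non-muscle alpha-actinin, was higher by 0.63 (adjusted p = 6.66e-04), the intermediate filament gene Des by 0.50 (adjusted p = 6.69e-04) and Synpo2l by 0.95 (adjusted p = 0.00181). Under median-ratio scaling Des was at 0.24 and did not pass (adjusted p = 0.221). Of 8 other thick-filament genes Mybpc2, the fast skeletal relative of Mybpc3, and Myh7b were higher (0.92, adjusted p = 0.0128; 0.54, adjusted p = 0.0326), and neither passed under median-ratio scaling or quantile normalization; the list's median was 0.11. Mybpc2 stood at 10.4 ± 1.97 TPM in P21 cKO and 4.96 ± 1.17 TPM in WT, far under Mybpc3.

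The other caveola genes showed 6 of 9 higher and none lower in P21 cKO, beside 19.5% and 1.77% of all genes. Their median was 0.45 beside 0.22 for all genes. Cav1, the main caveolin of endothelial cells and fibroblasts, was at 185 ± 10.1 TPM in cKO against 124 ± 13.1 TPM (0.59 ± 0.094; adjusted p = 0.00102). The genes Cavin1, Ehd2 and Cav2 were higher by 0.45, 0.61 and 0.57 (adjusted p = 8.03e-04, 0.00109 and 0.00375). Under median-ratio scaling Cav1, Ehd2 and Cav2 passed and Cavin1 did not (adjusted p = 0.057). The muscle caveolin Cav3 had 92.9 TPM in cKO, 90.4 TPM in WT, and did not pass. The endothelial and fibroblast sums given above moved with this list, and their part was not tested.

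Of 16 sarcomere chaperone and turnover genes 5 were higher (Hspb1, Trim63, Hspb7, Dnajb6 and Lmod3) and 1 lower (Hspb8), beside 19.5% and 1.77% of all genes. Their median was 0.30. Under median-ratio scaling Hspb1 alone was higher, and Hspb8, Smyd1 and Klhl41 were lower. Hspb1, a small heat shock protein that binds titin, was at 545 TPM in cKO against 271 TPM (0.88 ± 0.13; adjusted p = 4.94e-04). Of 10 splicing factors listed for a possible part in titin splicing, 4 were higher (Srsf1, Celf1, Ptbp1 and Celf2, by 0.35 to 0.54), beside 19.5% of all genes. The list's median was 0.38 beside 0.22 for all genes, and none of the 10 passed under median-ratio scaling. Whether each of them acts on titin was not tested. Rbm20, the main regulator of titin isoforms in heart, was at 92.4 TPM in P21 cKO and 68.3 TPM in P21 WT and did not pass.

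Counts over WT development depended on scaling. From P7 to P21, 2 of the 15 M-band and titin-binding genes were higher and 10 lower, beside 8.1% and 64.4% of all genes, with a median of -0.43 beside -0.47; under median-ratio scaling the counts were 8 higher and 4 lower. The 2 higher genes were Fhl2 and Trim54. Trim54, which encodes MURF3, a ubiquitin ligase that binds microtubules, went from 16.3 ± 3.21 TPM (n = 5) to 65.1 ± 8.28 TPM (n = 4), a log2 rise of 1.98 ± 0.20 (adjusted p = 3.38e-07). Its relative Trim55 fell by 1.33 (adjusted p = 2.3e-07), and both calls held under median-ratio scaling. Among 28 Z-disc genes 7 were higher and 16 lower (median -0.39 beside -0.47), or 12 higher and 8 lower under median-ratio scaling. The non-muscle actinins Actn1 and Actn4 fell by 1.72 and 1.36 (adjusted p = 6.94e-09 and 6.04e-10), and both also passed as lower under median-ratio scaling. The caveola list had none higher and 7 of 9 lower (median -0.84), and 2 higher (Pacsin2 and Pacsin3) and 5 lower under median-ratio scaling. Cav1, Ehd2 and Cavin1 fell by 1.49, 1.54 and 1.09 (adjusted p = 2e-10, 2.41e-10 and 2.35e-10) and passed as lower under both scalings. From P1 to P7, 4 caveola genes (Cav1, Cav2, Cavin2 and Ehd2) were higher and 1 lower, beside 13.8% and 14.7% of all genes. Their median was 0.37 beside 0.00 for all genes. Cav2 rose by 1.12 (adjusted p = 9.72e-06) and Cav3 fell by 0.34 (adjusted p = 0.00329). Under median-ratio scaling the caveola counts from P1 to P7 were also 4 higher and 1 lower. Under quantile normalization they were 7 higher and 0 lower, so the Cav3 fall was not called there. In that interval Myh7, the fetal myosin heavy chain, fell by 1.23 (adjusted p = 5.3e-08) while Mybpc3 had a change of 0.07 ± 0.065 (adjusted p = 0.445).

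Genes whose course over the 18 libraries was most like that of a member were found by Pearson's r of log2(TPM + 1) among the 8897 genes whose mean level was 5 TPM or more; the points share ages, genotypes and libraries, so r is a description. The closest to Tcap were Zfp970, Lrg1 and Eef1a2 (r = 0.97 each). Eef1a2, the muscle form of an elongation factor, stood at 205, 262, 261, 502 and 409 TPM on average in P1 WT, P7 WT, P7 cKO, P21 WT and P21 cKO. Actn2 was closest to Por, Hspb7 and Afap1l1 (r = 0.96 to 0.97), and Mybpc3 to Nos3, Myo1e and Slc38a1 (r = 0.96 to 0.97). Nos3, the endothelial nitric oxide synthase, stood at 21.1, 23.7, 24.7, 10.7 and 16.7 TPM on average in the same groups. Cavin4 was closest to Igfbp7, Cygb and Ankrd23 (r = 0.94 to 0.96), and Myom2 to Capns1, Mvp and Clip1 (r = 0.85 to 0.88). For Ldb3 they were Ppard, Cs and Perm1 (r = 0.88 to 0.90), and for Myom1 Cox7a2l, Ttc27 and Hspb2 (r = 0.77 to 0.91). Cox7a2l and Ttc27 spread widely within P7 WT, at 187 ± 88.85 and 19.8 ± 20.15 TPM (SD, n = 5). In P7 cKO they were at 120.6 ± 4.29 and 5.65 ± 1.95 TPM (n = 3). How far title style, with a fitted difference of -0.25 for Myom1, entered these r was not tested. The closest to Myom3, Plekhh3, reached r = 0.76. Among the members themselves, Actn2 and Mybpc3 had r = 0.88, and Tcap had r = -0.90 with Actn2 and -0.84 with Mybpc3.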

How the data were processed

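Heart RNA (RNA iso Plus) was turned into SMARTer mRNA-Seq libraries, per the labels' protocols. TopHat2 2.0.14, Cufflinks 2.2.1 and the mm10 build are named in the submitters' processing notes; what computed the TPM values is not given in the sources used here. The authors deposited 1 TPM value per gene and library, which is a share and holds no counts. Their columns of group means were not fitted, and 3 further columns not assigned to a sample or group were not used. The 18 libraries with a group were fitted together with limma 3.58.1 in R 4.3.3 (lmFit, eBayes with trend) on log2(TPM + 1), for genes reaching 1 TPM in 3 or more libraries, with group and title style as terms. P-values were adjusted by Benjamini-Hochberg over all genes tested in each comparison. The 30 alternatives changed the scaling, pseudocount (0.1), filter, model, place of library 63 or left out 1 library. The step was tested on simulated data. The 9 genes and all lists were chosen with earlier results of these data known. Every member is reported; of each list, up to 4 passing genes with the smallest p are named, or 2 where none passed. The other list genes and markers named were chosen after their values were seen. Likeness names up to 3 genes of highest r per member; for Ttn it is not reported here.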

Additional observations from a re-analysis of the deposited data

Results flagged for a closer look

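For 4 genes the knockout effect at P21 differed from that at P7 by a test of the difference itself (limma, an interaction contrast of the same model). The difference was 1.20 for Myom2 (adjusted p = 0.0288), -0.83 for Tcap (adjusted p = 0.0145), 0.44 for Mybpc3 (adjusted p = 0.00824) and 0.60 for Cavin4 (adjusted p = 0.0298), all on the log2 scale, beside 0.24 for the median gene. At P21 all 3 cKO libraries lay above all 4 WT libraries for Myom2, Mybpc3 and Cavin4 and below them for Tcap, and at P7 the genotypes overlapped for all 4. Relative to the median gene the values were 0.96, -1.07, 0.21 and 0.36. The contrast called 7.04% of all genes higher and 0.52% lower. Myom2, Mybpc3 and Cavin4 did not pass under median-ratio scaling or under quantile normalization. Within plain-number titles Mybpc3 alone passed, and with library 63 placed as cKO none of the 4 did. Of 30 alternative settings, 12 lost the Myom2 call and 13 the Cavin4 call. Dixon's ratio, the gap between an end library and its neighbour over the group's range, was taken in groups of 4 or 5 libraries. Those were WT P7 and WT P21 of each gene, 18 in all, and none passed the ratio's critical value. The P1 and cKO groups, of 3 libraries each, were not checked.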

How the results depend on the processing

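Counts of the 9 genes called moved with scaling. For P21 cKO against WT (4 higher, 1 lower), median-ratio scaling gave 1 higher and 2 lower, and placing library 63 as cKO 2 higher; leaving out libraries gave 3 to 4 higher and 1 lower. For WT P21 against P7 (2 higher, 3 lower), median-ratio scaling gave 4 and 0, and quantile normalization or removal of mitochondrial and haemoglobin genes 4 higher; leave-one-out counts were 2 higher and 3 to 4 lower. For cKO P21 against P7 (3 higher, 2 lower), median-ratio scaling gave 0 lower, quantile normalization 5 higher, and both removal of those genes and no filter 1 lower; leave-one-out counts were 2 to 3 higher and 1 to 2 lower. There Myom1 was 0.18 under quantile normalization and Mybpc3 0.12 under median-ratio scaling, both opposite in sign to the reported -0.02 and -0.18. For WT P7 against P1 (2 higher, 1 lower), median-ratio scaling gave 1 and 0, quantile normalization 4 and 0, no filter 1 higher and library 63 as cKO 0 lower, while no title style in the model lost Actn2 and added Myom1 (lower) and Ldb3 (higher); leave-one-out counts were 1 to 2 higher and 0 to 2 lower. For the difference of the P21 and P7 effects (3 higher, 1 lower), both scalings gave 0 higher, no filter 1 higher, plain-number titles alone 1 and 0, and library 63 as cKO 0 and 0; leave-one-out counts were 1 to 3 higher and 1 lower. For P7 cKO against WT every setting run gave 0. The cause of these changes was not tested. A replicate block on the numbers of letter-coded titles left 0.56 for the Cavin4 difference of effects, which then did not pass (adjusted p = 0.0576), and changed no other call of the 9 genes. Deviations of same-numbered libraries had correlations of -0.10 to 0.07. WT P7 and WT P21 had 2 letter-coded libraries each, whose deviations mirror each other. These values therefore cannot tell whether same-numbered libraries share more than a number. Over all genes, calls higher and lower in P21 cKO went from 2893 and 262 to 609 and 791 under median-ratio scaling and 608 and 642 under quantile normalization; within plain-number titles they were 1353 and 182, with array quality weights 5375 and 327, with library 63 as cKO 808 and 47 (2923 and 313 as WT), without WT library 57 or 60 1274 and 195 or 4819 and 236, and without cKO library 59 or 64 1471 and 187 or 1621 and 181. In WT P21 against P7 they went from 1200 and 9543 to 4086 and 3973, and to 3964 and 4042. In cKO P21 against P7 they went from 1387 and 5781 to 3022 and 2896 (3027 and 3052 under quantile normalization), and for the difference of effects from 1043 and 77 to 143 and 208 (158 and 154 under quantile normalization, 558 and 63 with no filter, 576 and 80 without mitochondrial and haemoglobin genes, 86 and 19 within plain-number titles, 689 and 66 with the replicate block, 4945 and 267 with array quality weights, 0 and 0 with library 63 as cKO, 914 and 89 with it as WT); leaving out 1 library gave 326 to 3000 higher. Of 1605 alternative values of single genes, 1517 kept their side of the threshold, and those of them that passed kept their direction. Values that passed neither as reported nor in the alternative were counted as kept even where their sign changed. Myom3 could not be fitted with the 5 TPM filter, and P7 against P1 not within plain-number titles. Depth is unknown, so counting error cannot be set beside any value.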

Other observations

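Library 63, in no group, had 799 TPM of Tcap, 629 TPM of Actn2, 969 TPM of Mybpc3, 280.3 TPM of Myom2, 434 TPM of Myom1, 430.2 TPM of Ldb3, 93.8 TPM of Ttn, 46.7 TPM of Cavin4 and 1.89 TPM of Myom3. Its Tcap to Ttn ratio was 8.51 and its Myom2 to Myom1 ratio 0.645.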
